A study of Mus musculus with 8 samples.

Results

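The Hippo pathway core was followed as 10 genes, Yap1, Wwtr1, Tead1, Lats1, Lats2, Stk3, Stk4, Sav1, Mob1a and Nf2, taken by gene symbol from the 23183 genes counted in each library. Bulk mRNA-seq was done on group 2 innate lymphoid cells (ILC2s), tissue-resident lymphocytes that make IL-5 and IL-13, kept in culture, in 8 libraries. The cells came from lungs of wild-type C57BL/6 J mice (labelled C57BL/6) of 6 to 10 weeks, both sexes, that had been given IL-33, and were cultured with IL-2, IL-7 and IL-33. The 4 Yoda1 libraries were from cells given 5 µM Yoda1, a chemical agonist of the mechanosensitive cation channel Piezo1, for 3 h, and the 4 DMSO libraries were from cells given the vehicle at 0.1%. All cells, vehicle included, had cytokine stimulation, and Piezo1 was opened chemically. Whether the libraries of a group came from separate mice or from cultures of a single pool was not stated, so p-values measure only the spread between these libraries.

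The Hippo pathway is a kinase cascade that restrains cell growth and reads cell shape, contact and tension. The MST kinases (Stk3 and Stk4), held by the scaffold Sav1, activate the LATS kinases (Lats1 and Lats2) with the adaptor Mob1a, and Nf2 (merlin) brings LATS to the membrane. Active LATS phosphorylates the coactivators YAP (Yap1) and TAZ (Wwtr1) and keeps them out of the nucleus, where they would otherwise act through TEAD factors such as Tead1. In T lymphocytes MST1, the product of Stk4, is also known for roles in adhesion, trafficking and survival that do not run through YAP. The study asked whether YAP/TAZ signaling was engaged downstream of Piezo1 in ILC2s, and these counts report mRNA abundance only, not phosphorylation or location of the proteins.

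Total counts ran from 12438009 to 19534653 per library, so 1 count was worth 0.0514 to 0.0807 CPM (counts relative to the library total, with TMM factors). Of all genes, 12239 had enough counts for a test, and 1331 of them (10.9%) had an adjusted p under 0.05 (edgeR, quasi-likelihood F-test, Benjamini-Hochberg). With Yoda1 739 (6.04%) were higher and 592 (4.84%) lower. This split moved to 505 higher and 958 lower with upper-quartile factors. Of 10 listed ILC2 markers all were tested, and they summed to 12600 to 13200 CPM with DMSO and 14500 to 14900 with Yoda1. By edgeR 5 of them were higher and 1 was lower with Yoda1. Much of the sum was Il13 (means of 5431 CPM with DMSO and 6667 with Yoda1) and Il5 (3337 and 3672), both called higher. The sum therefore does not measure cell content alone. Fibroblast markers reached at most 36 counts in a library, epithelial markers at most 63 and macrophage markers at most 15. Of the endothelial list only Pecam1, which leukocytes also carry, exceeded 8 counts. T cell markers summed to 69.8 to 77.5 CPM with DMSO and 75.2 to 84.8 with Yoda1, mostly from Cd3g, and 0 of the 6 passed the edgeR threshold, 1 having an unadjusted p under 0.05. B cell markers summed to 5.32 to 7.07 and 5.54 to 7.20 CPM. The part of these cells in the results was not tested. Piezo1 itself measured 310.5 ± 13.1 CPM in DMSO libraries and 322.5 ± 17.6 in Yoda1 libraries (SD, n = 4 each), with overlapping groups (log2 fold change 0.06, edgeR adjusted p = 0.407).

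The core genes lie on 10 different chromosomes, and what they share beyond function was looked for in the 250 bases before their transcription starts. RefSeq's windows on GRCm38.p6 covered 8 of the 10, with 11 starts in all, and Tead1 and Stk3 had no entry. In all, 5 short motifs were searched on both strands. The TEAD core letters GGAATG stood in 5 of the 11 windows, belonging to 4 genes (the windows of both Wwtr1 starts overlap), against 12.6% of the 32851 windows of all genes and 8.03% of the 9646 windows with at least 14 CpG dinucleotides. That cut was the CpG count of the Mob1a window, the lowest among the core windows with the letters, so the matches themselves set it. The core windows were not cut in this way and include a Lats2 window with 4 CpG and an Nf2 window with 2. No conclusion is drawn from the 8.03%. The 4 genes were both coactivators, the MST scaffold Sav1 and the LATS adaptor Mob1a. Their windows are shown because they hold the letters bound by the pathway's own transcription factor, with those letters in capitals.
Yap1, chr9:8004597-8004846, minus strand: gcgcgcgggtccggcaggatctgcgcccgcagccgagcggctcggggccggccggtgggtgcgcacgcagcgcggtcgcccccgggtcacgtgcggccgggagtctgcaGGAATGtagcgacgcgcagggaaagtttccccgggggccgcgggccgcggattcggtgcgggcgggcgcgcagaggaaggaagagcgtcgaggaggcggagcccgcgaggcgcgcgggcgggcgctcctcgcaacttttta
Wwtr1, chr3:57575911-57576160, minus strand: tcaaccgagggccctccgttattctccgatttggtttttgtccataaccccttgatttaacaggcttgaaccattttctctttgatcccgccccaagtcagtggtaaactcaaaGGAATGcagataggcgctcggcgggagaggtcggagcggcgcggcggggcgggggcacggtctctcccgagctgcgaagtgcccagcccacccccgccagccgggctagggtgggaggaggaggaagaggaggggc
Sav1, chr12:69987003-69987252, minus strand: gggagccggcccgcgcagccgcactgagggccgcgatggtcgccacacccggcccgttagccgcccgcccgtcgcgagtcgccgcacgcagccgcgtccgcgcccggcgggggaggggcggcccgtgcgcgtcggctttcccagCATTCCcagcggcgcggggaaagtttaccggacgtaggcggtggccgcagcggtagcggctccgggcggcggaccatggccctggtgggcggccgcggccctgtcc
Mob1a, chr6:83325789-83326038, plus strand: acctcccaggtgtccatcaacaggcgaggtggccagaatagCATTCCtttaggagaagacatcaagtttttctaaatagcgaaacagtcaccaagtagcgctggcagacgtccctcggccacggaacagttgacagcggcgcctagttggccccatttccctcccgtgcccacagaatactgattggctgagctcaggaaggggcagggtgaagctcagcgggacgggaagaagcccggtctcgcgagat

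The letters began 141 bases before the start of Yap1, 136 before that of Wwtr1, 106 before that of Sav1 and 209 before that of Mob1a, and in Sav1 and Mob1a they read on the opposite strand, as CATTCC. A match is a run of letters and not a measured binding site. The SP motif GGGCGG stood in 8 of the 11 core windows, against 32.7% of all. This motif itself holds a CpG, and it was not set against windows of like CpG content. The CRE letters TGACGTCA and the SRF CArG box stood in 0 of the 11, against 1.55% and 1.47% of all windows, and the shorter run TGACG, which lies inside the CRE, stood in 1, upstream of Lats2, against 17.8%. The windows of Yap1 and Sav1 were among the richest in CpG, with 44 and 43 CpG dinucleotides against a median of 6 over all windows.

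All 10 core genes passed the filter on low counts, and their mRNA levels differed far more between genes than between treatments. Levels of different genes were compared as CPM per kb of merged exons in GENCODE M21. Stk4 stood at the top with 43.7 CPM per kb averaged over the 8 libraries, at the 91.2nd percentile of the 11776 tested genes with a length. Nf2 followed at 25.3 and Mob1a at 24.7 CPM per kb, and their ranges over libraries overlapped. Lats1 and Sav1 were level with each other, both at 11.6 CPM per kb. The next group, Lats2 at 3.05, Stk3 at 2.78 and Wwtr1 at 2.24 CPM per kb, formed a run in which each neighbour overlapped the next. Yap1, at 0.600 CPM per kb, lay below Wwtr1 with no overlap and at the 10.8th percentile. Tead1 was lowest at 0.267 CPM per kb, the 4.87th percentile.

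The 5 highest genes (Stk4, Nf2, Mob1a, Lats1 and Sav1) all belong to the inhibitory arm, as does every core gene other than Yap1, Wwtr1 and Tead1. The coactivators and Tead1 were the lowest of the core on this scale. The order among close neighbours rested on the length used. With the longest annotated transcript, 7 of the 9 neighbouring pairs kept their order, Sav1 (18.1 CPM per kb) passing Lats1 (11.7) and Stk3 (5.16) passing Lats2 (4.09). That transcript has 1 exon for Stk3 and 2 for Yap1, so for these genes it may not be the coding mRNA. With coding length 6 pairs kept their order. There Mob1a (182.4 CPM per coding kb) passed Stk4 (175.3) and Nf2 (96.5), Sav1 (52.6) again passed Lats1 (25), and Stk3 (11.4) and Wwtr1 (7.88) passed Lats2 (6.79). Under all 3 lengths Wwtr1 lay above Yap1 and Yap1 above Tead1.

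**Figure D1:**
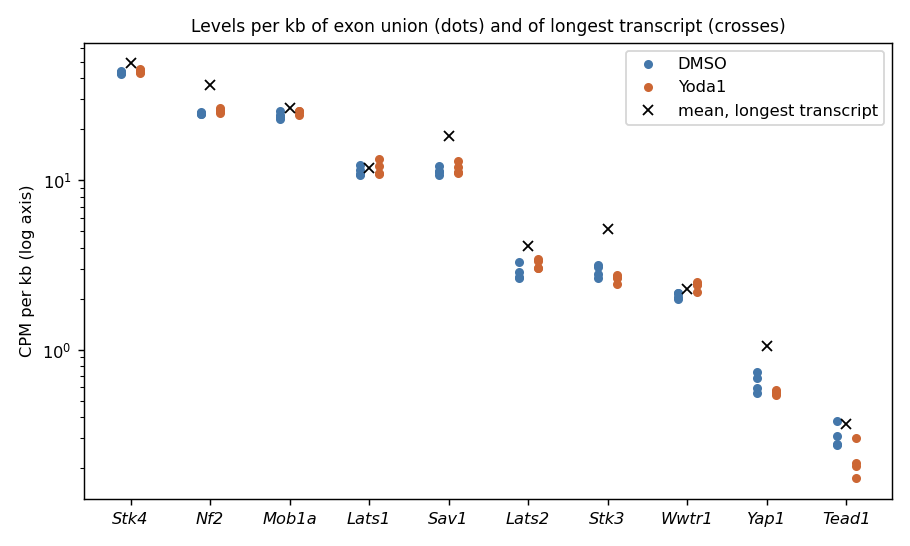
Level of each core gene in CPM per kb of merged exons (log axis), with a dot for each of the 4 DMSO (blue) and 4 Yoda1 (orange) libraries and a cross for the mean over all 8 with the longest annotated transcript as length. Stk4 sits at 43.7 and Tead1 at 0.267 CPM per kb, and Lats1 and Sav1 lie on each other at 11.6 CPM per kb.

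Yoda1 moved none of the 10 core genes past the threshold. In the edgeR fit 0 of 10 had an adjusted p under 0.05, with 0 higher (6.04% of all genes tested) and 0 lower (4.84%), against 10.9% in either direction, and 0 passed by DESeq2 or limma-voom. At an unadjusted p under 0.05 there were 3 of 10 (Wwtr1, Tead1 and Lats2), against 25.3% of all genes. Over the core the log2 fold change had a median of 0.06, and 7 of 10 genes lay above 0, against a median of -0.0053 and 48.4% above 0 over all genes tested. The groups did not overlap for 1 of the 10 (Wwtr1), against 15.5% of all genes.

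Yap1 was read from 62 to 101 counts per library. It stood at 6.32, 5.15, 5.50 and 6.80 CPM in DMSO replicates 1 to 4 and at 5.01, 5.36, 5.17 and 5.14 CPM in Yoda1 replicates 1 to 4. The Yoda1 libraries lay close together near the low end of the DMSO range, and the groups overlapped. The log2 fold change was -0.19 with a standard error of 0.13 and a 95% interval from -0.44 to 0.07 (edgeR adjusted p = 0.366). Without DMSO replicate 4, the highest library, it was -0.12 (edgeR adjusted p = 0.623). Yap1 spans 7931999 to 8004596 on the minus strand of chromosome 9 (GRCm38), and its exons overlap those of Gm20416 on the opposite strand. The strand setting of the counting is not given in the sources used here.

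Wwtr1, which encodes the coactivator TAZ, was the core gene whose groups separated. It stood at 9.58, 10.3, 9.78 and 10.4 CPM with DMSO and at 11.5, 11.99, 10.4 and 11.6 CPM with Yoda1, from 139 to 226 counts per library. Every Yoda1 library lay above every DMSO library, but Yoda1 replicate 3 (10.42 CPM) cleared DMSO replicate 4 (10.35 CPM) by less than 1 DMSO SD of 0.381 CPM. The log2 fold change was 0.19 with a standard error of 0.09 and a 95% interval from 0.01 to 0.37, and it did not pass over all genes (edgeR adjusted p = 0.181; from 0.140 to 0.330 over the other settings tried). The exact permutation test gave its smallest possible two-sided p, 0.0286. Wwtr1 spans 57455649 to 57575910 on the minus strand of chromosome 3. The symbol Taz in these counts is a different gene, tafazzin, a mitochondrial cardiolipin enzyme on chromosome X, and it stood at 31.6 ± 1.41 and 30.4 ± 1.18 CPM (SD, n = 4 each; log2 fold change -0.06, edgeR adjusted p = 0.577).

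Tead1, the DNA-binding partner of both coactivators, had the largest fold difference of the core and the fewest counts, 36 to 77 per library. It stood at 3.76, 4.22, 3.71 and 5.17 CPM with DMSO and at 2.91, 4.08, 2.77 and 2.37 CPM with Yoda1. The Yoda1 libraries other than replicate 2 lay below all DMSO libraries, and replicate 2 lay within the DMSO range. The log2 fold change was -0.47 with a standard error of 0.17 and a 95% interval from -0.82 to -0.11 (edgeR adjusted p = 0.0801, unadjusted p = 0.0112). Tead1 passed the threshold without Yoda1 replicate 2, where the difference was -0.66 on the log2 scale (edgeR adjusted p = 0.0178), and over all settings its adjusted p ran up to 0.287. Of the other TEAD genes, Tead2 had 8 to 26 counts per library and Tead3 had 22 to 41, with log2 fold changes of 0.12 and -0.15 and edgeR adjusted p values of 0.849 and 0.687. Tead4 had 0 to 3 counts and was not tested.

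**Figure D2:**
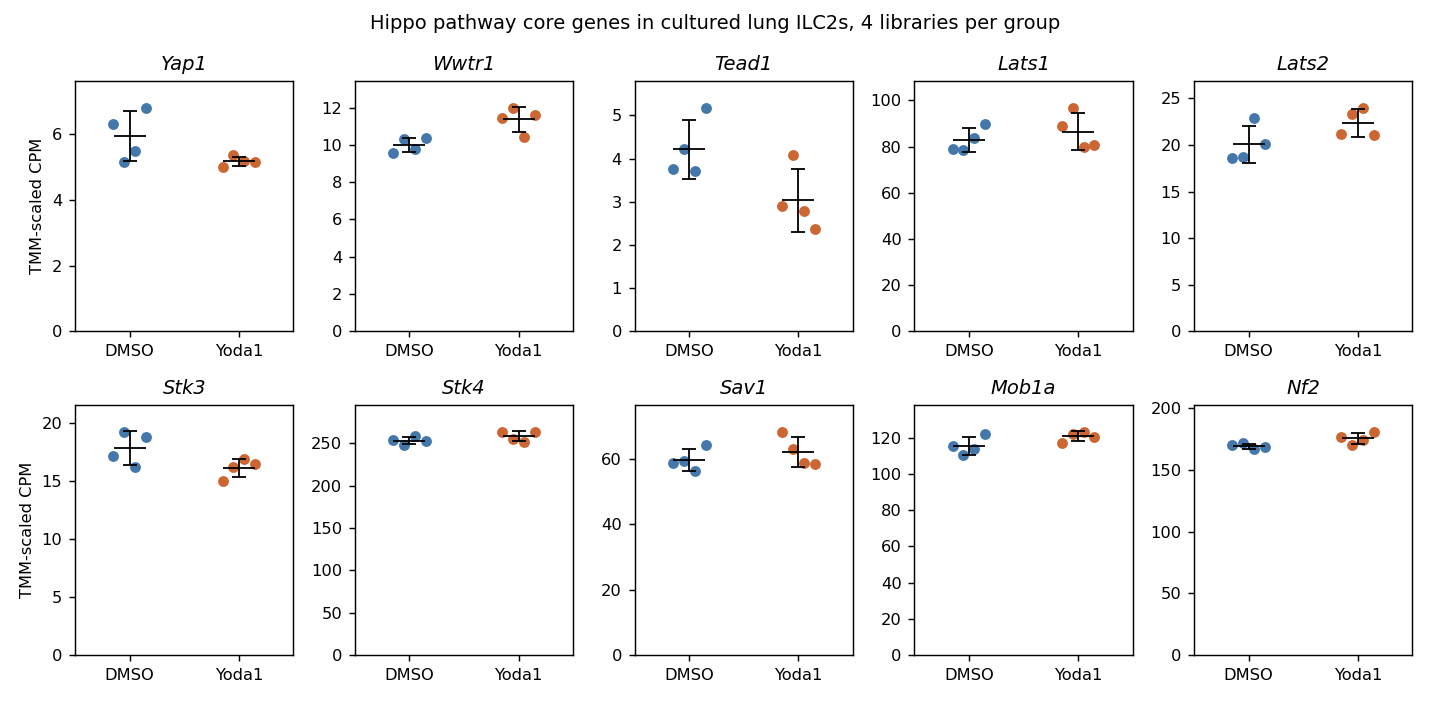
TMM-scaled CPM (vertical axes, each starting at 0) of the 10 core genes in 4 DMSO (blue) and 4 Yoda1 (orange) libraries, with a horizontal bar for the group mean and whiskers for the SD. The groups are apart for Wwtr1 only, and the 4 Yoda1 values of Yap1, from 5.01 to 5.36 CPM, sit near the lower DMSO values.

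The LATS kinases, which phosphorylate YAP and TAZ, were unequal in level and did not pass the test. Lats1 ran from 78.6 to 89.8 CPM with DMSO and from 79.9 to 96.8 with Yoda1, with a log2 fold change of 0.07 (95% interval from -0.05 to 0.19, edgeR adjusted p = 0.522). Lats2 stood at 18.6, 18.7, 22.9 and 20.1 CPM with DMSO and at 21.2, 23.3, 24.0 and 21.0 CPM with Yoda1. All Yoda1 libraries exceeded the other 3 DMSO libraries, and DMSO replicate 3 lay inside the Yoda1 range. The log2 fold change of Lats2 was 0.16 with a standard error of 0.08 (95% interval from 0.00 to 0.31, edgeR adjusted p = 0.191). Exons of Lats2 (chromosome 14, 57689662 to 57758388, minus strand) overlap those of Gm49361 on the same strand, which has no row of its own in the count files, so reads there may be of either.

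The MST kinases differed from each other by far more than the groups of either did. Stk4, which encodes MST1, ran from 248.0 to 259 CPM with DMSO and from 251.8 to 264 with Yoda1, and the ranges overlapped. Its log2 fold change was 0.03 (95% interval from -0.04 to 0.10, edgeR adjusted p = 0.657), and it was -0.0012 with upper-quartile factors. Stk3, which encodes MST2, stood at 17.2, 19.3, 16.2 and 18.9 CPM with DMSO and at 15.02, 16.2, 16.9 and 16.5 CPM with Yoda1. Its groups overlapped through DMSO replicate 3, the lowest DMSO library, and its log2 fold change was -0.14 with a standard error of 0.08 (edgeR adjusted p = 0.253).

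The scaffolds and adaptors had small differences. Sav1, the MST scaffold, ran from 56.4 to 64.3 CPM with DMSO and from 58.5 to 68.4 with Yoda1 (log2 fold change 0.06, edgeR adjusted p = 0.547), and part of its exons lies opposite to Atl1. Mob1a, the LATS adaptor, ran from 110.5 to 122.1 CPM with DMSO and from 117.1 to 123.5 with Yoda1 (log2 fold change 0.07, edgeR adjusted p = 0.307). Nf2, which encodes merlin, ran from 167 to 172 CPM with DMSO and from 170.5 to 181 with Yoda1 (log2 fold change 0.05, edgeR adjusted p = 0.373). In each of these genes the Yoda1 libraries reached higher than the DMSO libraries, and the ranges overlapped.

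The precision differed with the counts behind each gene. The 95% interval of the log2 fold change lay within 0.2 of 0 for 5 of the 10 core genes (Lats1, Stk4, Sav1, Mob1a and Nf2), so for these a fold change beyond that size was outside the interval. It lay within 0.5 of 0 for 9 of 10, all but Tead1, for which a decrease to 0.565 of the DMSO level remained inside the interval. DMSO replicate 4 was the highest DMSO library for 6 of the 10 core genes and the lowest for 0 of them. Without it the median log2 fold change of the core was 0.07 against 0.06 with it.

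**Figure D3:**
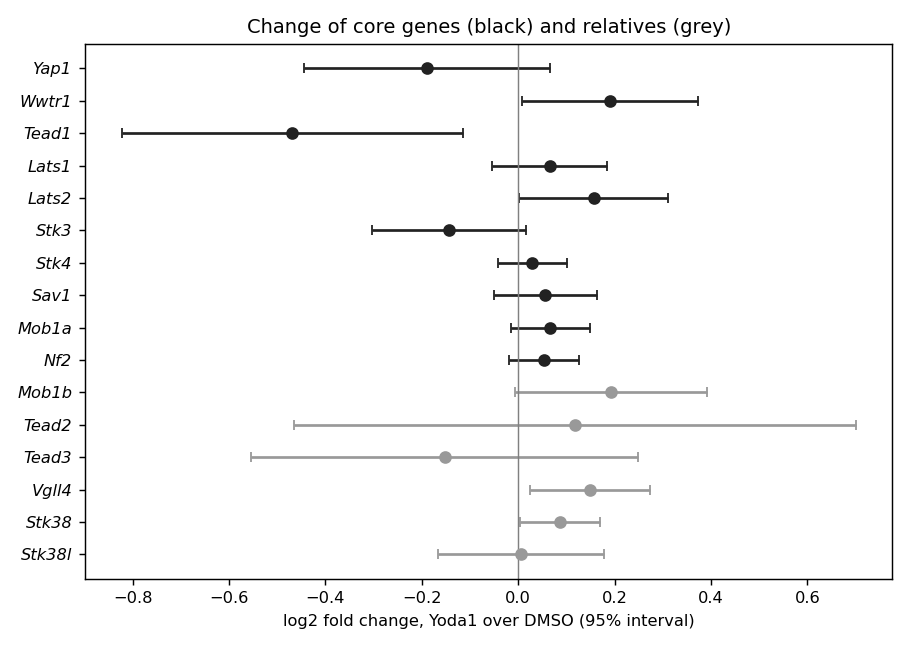
Log2 fold change of Yoda1 over DMSO (horizontal axis) with its 95% interval from edgeR for the 10 core genes (black) and 6 close relatives (grey). Intervals are short for Stk4, from -0.04 to 0.10, and long for Tead1, from -0.82 to -0.11, and no gene shown passed the adjusted threshold.

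Because related genes can stand in for each other, the balance of each set of paralogs was taken as a share of length-scaled reads within each library, a quantity that scaling between libraries cannot move. Wwtr1 made up 74.6%, 79.5%, 77.5% and 74.7% of the Yap1 and Wwtr1 sum in the DMSO libraries and 81.6%, 81.3%, 79.6% and 81.4% in the Yoda1 libraries. All Yoda1 libraries lay above all DMSO libraries, though Yoda1 replicate 3 exceeded DMSO replicate 2 by little. The mean share was 76.6% ± 2.38 in DMSO and 81.0% ± 0.922 in Yoda1 libraries (SD, n = 4 each), a difference of 4.41 percentage points from 204 to 326 reads per library. The level of each share rests on the length used, here that of merged exons. Yap1 has 9.257 kb of merged exons but a longest transcript of 5.282 kb, with 2 exons, against 4.779 and 4.697 kb for Wwtr1. For the Wwtr1 share the two-sided exact permutation test gave p = 0.0286, the smallest that 4 against 4 allow. It was 0.143 after Benjamini-Hochberg adjustment over the 5 shares tested, so the shift did not pass. A share that separates alone could not pass this adjustment whatever its size, so no conclusion is drawn from that outcome.

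The other paralog shares, also of length-scaled reads, overlapped between the groups. Stk3 made up 6.33% ± 0.582 of the MST kinase reads in DMSO and 5.65% ± 0.358 in Yoda1 libraries (SD, n = 4 each; exact permutation p = 0.143, adjusted 0.333). Lats2 made up 20.2% ± 1.39 and 21.4% ± 1.82 of the LATS reads (SD, n = 4 each; exact permutation p = 0.343, adjusted 0.371). Mob1b, a close paralog of Mob1a, made up 10.9% ± 1.0 and 11.7% ± 1.31 of their sum (SD, n = 4 each; exact permutation p = 0.371, adjusted 0.371). Tead1 made up 34.4% ± 7.25 and 27.9% ± 5.32 of the TEAD reads, from 70 to 131 reads per library (SD, n = 4 each; exact permutation p = 0.2, adjusted 0.333). The levels for Tead1 and Mob1b rest on long merged exons. Tead1 has 13570 bp against 4788 for Tead2 and 6714 for Tead3, and Mob1b has 15033 bp against 4794 for Mob1a. Coding lengths of Tead1, Tead2 and Tead3 are close, at 1308, 1335 and 1395 bp. In unscaled counts Tead1 was the highest TEAD gene in every library, with 36 to 77 against 22 to 41 for Tead3. Wwtr1, Stk4, Lats1 and Mob1a held most of their set's length-scaled reads in every library.

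**Figure D4:**
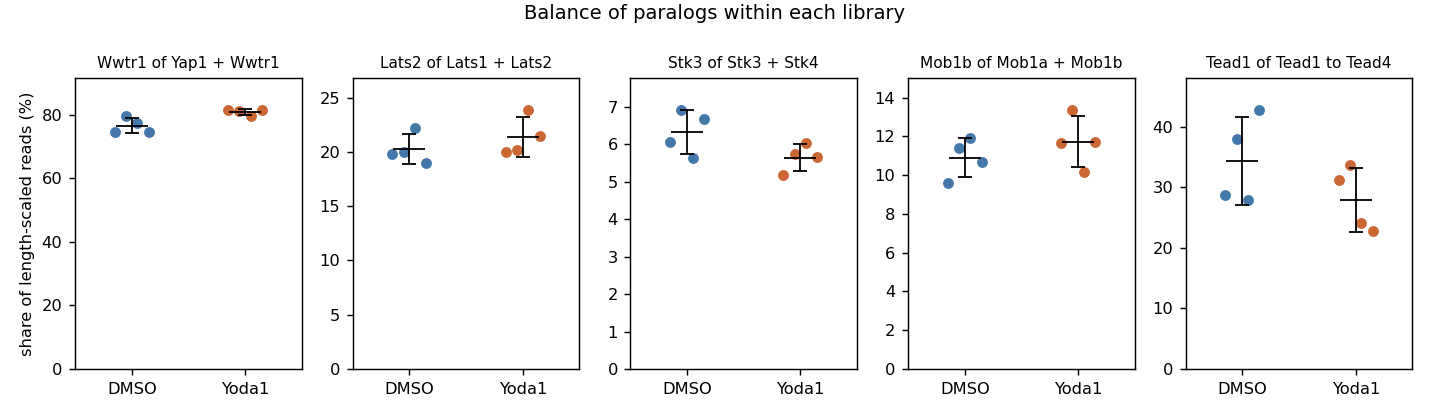
Share (%) of length-scaled reads taken by the named paralog within each DMSO (blue) and Yoda1 (orange) library, with the group mean and SD and axes from 0. The Wwtr1 share averages 76.6% of the coactivator reads with DMSO and 81.0% with Yoda1 without overlap, and the remaining shares overlap.

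The wider pathway was read from a list of 65 further genes, of which 55 were tested. In the edgeR fit 49 did not pass, 2 were higher (6.04% of all genes tested) and 4 were lower (4.84%) with Yoda1, and with upper-quartile factors 1 was higher and 5 were lower. The median log2 fold change was 0.00035, with 28 of 55 above 0. The 4 that fell included 2 with larger changes than any core gene, both encoding junction-associated scaffolds known to bind YAP or TAZ.

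Tjp1, which encodes the tight junction scaffold ZO-1, fell by 0.95 on the log2 scale (standard error 0.13, edgeR adjusted p = 9.35e-06). It stood at 6.82, 6.46, 6.59 and 7.91 CPM with DMSO and at 2.91, 4.201, 3.37 and 3.60 CPM with Yoda1, from 36 to 118 counts per library, and no Yoda1 library came near the DMSO range. The tested epithelial markers Cdh1, Epcam and Krt18 did not pass, with log2 fold changes of -0.16, -0.07 and -0.21 and edgeR adjusted p values of 0.618, 0.896 and 0.623. Krt8 had at most 1 count in a library. The epithelial list summed to 6.19 to 6.95 CPM with DMSO and 4.87 to 6.63 CPM with Yoda1. Of the fibroblast markers, Pdgfrb stood at 1.28 ± 0.228 CPM with DMSO and 0.723 ± 0.163 in Yoda1 libraries (SD, n = 4 each), without overlap (log2 fold change -0.76, edgeR adjusted p = 0.0906), while Lum lay at 0.26 on the log2 scale (edgeR adjusted p = 0.512) and Col3a1 had 0 counts throughout. Pdgfra had 1, 5, 3 and 4 counts in DMSO replicates 1 to 4 and 1, 0, 1 and 0 in Yoda1 replicates 1 to 4. Col1a1 had 1, 2, 1 and 3 against 0, 2, 5 and 3 counts, and Col1a2 and Dcn had at most 5 in a library. The endothelial marker Kdr had 3, 8, 1 and 6 against 1, 2, 1 and 0 counts, and Cdh5 had 1, 0, 0 and 1 against 0, 3, 1 and 0. Pecam1 lay at -0.0073 on the log2 scale, and Tek and Vwf had at most 1 count in a library. The 7 fibroblast markers summed to 3.18 to 3.84 CPM with DMSO and 2.88 to 3.55 CPM with Yoda1. Their part in the lower values of Tjp1, Amotl1, Yap1 and Tead1 was not tested.

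Amotl1, which encodes an angiomotin that holds YAP at junctions and on actin, fell by 0.60 on the log2 scale (standard error 0.11, edgeR adjusted p = 0.000321). It stood at 11.1, 14.6, 11.7 and 10.7 CPM with DMSO and at 6.70, 8.65, 7.42 and 8.69 CPM with Yoda1, with every Yoda1 library below every DMSO library. Its relative Amot had 12 to 25 counts per library (log2 fold change -0.23, edgeR adjusted p = 0.655), and Amotl2 had 0 to 5 counts and was not tested. The calls for Tjp1 and Amotl1 held in each of the 15 other fits, with adjusted p values up to 2e-04 and 0.00552.

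The RASSF adaptors, which bind MST kinases, went in both directions. Rassf5, also known as RAPL, a partner of MST1 in lymphocyte adhesion, rose from 145.8 ± 6.08 to 165 ± 2.98 CPM (SD, n = 4 each), or by 0.18 on the log2 scale (standard error 0.04, edgeR adjusted p = 0.00214). Rassf2 fell from 42.4 ± 1.85 to 35.04 ± 2.07 CPM (SD, n = 4 each), or -0.27 on the log2 scale (standard error 0.06, edgeR adjusted p = 0.00152). The groups did not overlap for either gene. Rassf1 was at 47.8 ± 2.88 and 47.7 ± 2.28 CPM (SD, n = 4 each; edgeR adjusted p = 0.993).

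Among the kinases beside the core and their inhibitors, the changes were smaller. Taok2, a kinase upstream of MST, fell by 0.14 on the log2 scale (edgeR adjusted p = 0.0300), with overlapping groups, and lost its call with DESeq2 (adjusted p = 0.0552) and without any of DMSO replicates 2 (0.144) and 3 (0.102) and Yoda1 replicates 3 (0.105) and 4 (0.0735). Strn4, a subunit of the STRIPAK phosphatase complex that inactivates MST kinases, rose by 0.15 on the log2 scale (edgeR adjusted p = 0.0193), and lost its call with upper-quartile factors (0.0666) and without DMSO replicate 4 (0.0709) or Yoda1 replicates 1 (0.0539), 3 (0.0575) or 4 (0.0618).

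The TEAD cofactor Vgll4, which competes with YAP, stood at 25.5 ± 1.123 and 28.4 ± 0.558 CPM (SD, n = 4 each) with groups that did not overlap, but it did not pass (log2 fold change 0.15, edgeR adjusted p = 0.117). Vgll1, Vgll2 and Vgll3 had 0 counts in every library, which allows up to 3 counts, or 0.154 to 0.242 CPM. Mob1b was at 44.3 ± 4.09 and 50.4 ± 6.50 CPM (SD, n = 4 each; edgeR adjusted p = 0.215), and it passed without a filter on low counts (0.0072) and without Yoda1 replicate 3 (0.0471). The LATS-related kinases Stk38 and Stk38l had log2 fold changes of 0.09 and 0.0061 (edgeR adjusted p = 0.183 and 0.975), and that of Stk38l was -0.02 with library size only.

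**Figure D5:**
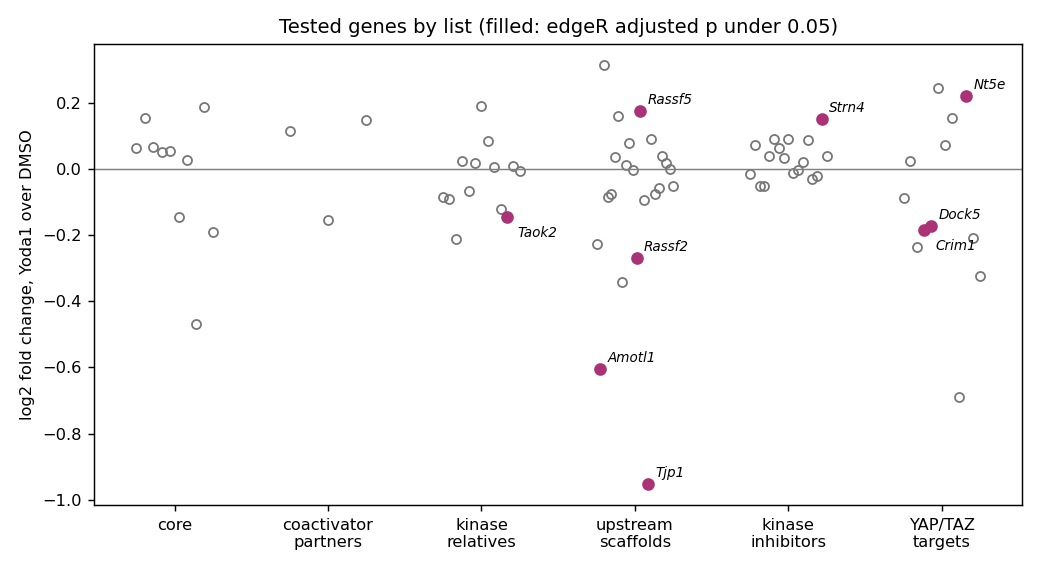
Log2 fold change of Yoda1 over DMSO (vertical axis) for every tested gene of the core, of the 4 groups of the wider pathway and of the YAP/TAZ target list, with filled points for an edgeR adjusted p under 0.05. The core column holds 0 filled points, and Tjp1 at -0.95 and Amotl1 at -0.60 lie farthest from 0 among the filled points.

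Of a list of 22 genes known as YAP/TAZ targets in adherent cells, 12 were counted well enough for a test and 10 were not. The classical targets Ctgf and Ankrd1 had 0 counts in every library, and Cyr61 had 2 counts in DMSO replicate 1 and 0 elsewhere. The 10 that were not tested had at most 18 counts in a library. F3, which encodes tissue factor, had 0 counts in all DMSO libraries and 3, 5, 0 and 3 counts in Yoda1 replicates 1 to 4, at or near the floor of 3 counts. Axl, a receptor tyrosine kinase, was well counted at 58.9 ± 3.0 and 59.8 ± 2.28 CPM (SD, n = 4 each). Its difference was 0.02 on the log2 scale (edgeR adjusted p = 0.807), and -0.0058 with upper-quartile factors.

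Of the 12 targets tested, 1 rose (6.04% of all genes tested), 2 fell (4.84%) and 9 did not pass in the edgeR fit. Their median on the log2 scale was -0.13 with 5 of 12 above 0, beside -0.0053 and 48.4% over all genes. Nt5e, which encodes the ectonucleotidase CD73, rose by 0.22 on the log2 scale (standard error 0.04, edgeR adjusted p = 0.000298). It stood at 82.8, 83.2, 84.5 and 84.4 CPM with DMSO and at 95.5, 100, 98.8 and 95.9 CPM with Yoda1, with the groups well apart. Dock5, a Rac exchange factor, fell by 0.17 (edgeR adjusted p = 0.0208) and Crim1, a transmembrane BMP regulator, fell by 0.18 (edgeR adjusted p = 0.0362), both with overlapping groups. The call for Crim1 was lost with DESeq2 (adjusted p = 0.0710), and without DMSO replicate 2, 3 or 4 or Yoda1 replicate 1 or 3 neither gene passed, with adjusted p values from 0.0555 to 0.118. Crim1 also did not pass without Yoda1 replicate 4 (0.163). Lats2, itself on this target list, is described above with the core.

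Over the 8 libraries, the genes whose log2 CPM followed Yap1 most closely were Tmem69 (Pearson's r = 0.974), Slc10a7 (0.960) and Actr3 (0.940). Those that followed Wwtr1 most closely were Akap2 (0.987), Fip1l1 (0.978) and Cd164 (0.975). They were the highest among all tested genes, the points share libraries and the 2 treatment groups, and they are given as a description. The log2 fold changes of the 3 genes like Wwtr1 were 0.20, 0.16 and 0.12, and those of the 3 like Yap1 were -0.15, -0.18 and -0.06.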

How the data were processed

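Poly(A) RNA of 8 samples of cultured murine lung ILC2s was sequenced with a directional kit. The files deposited by the authors hold unnormalized counts of reads by gene symbol. Tools in their methods are FASTX Trimmer, FastQC, Cufflinks and BBMap, while the submitters' processing notes list TopHat and mm10. Versions, annotation, counter and strand setting are not given in the sources used here. Counts are of reads, so floors (3 counts) cover counting error only.

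Genes were filtered with filterByExpr (minimum count 10, minimum total 15), scaled with TMM and tested over the whole table in R 4.3.3 with edgeR 4.0.16 (robust quasi-likelihood, Benjamini-Hochberg, 0.05). The standard error is the absolute log2 fold change over the root of F, and log2 CPM for correlations used a prior count of 2. Alternatives were limma 3.58.1 (voom), DESeq2 1.42.0, other scalings and filters, a block for the replicate number, and leaving out each library. The code was tested on simulated data with known changes, all larger than those of the core genes and at a single dispersion. That test does not tell how well smaller changes are found. Positions and lengths came from GENCODE M21 (GRCm38), matched by symbol or RefSeq synonym for 95.6% of the symbols. Every pair of replicates differed by more than counting noise (chi-square per gene from 2.01 to 6.62). Same-numbered libraries did not deviate together, so no pairing was used.

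The members and lists were chosen with earlier results of these data known. Named genes are the 10 members, their close relatives, Taz, Piezo1, classical targets, listed genes past the threshold and the 3 genes most like Yap1 and Wwtr1. Also named, after their values were seen, were Amot, Rassf1, Scrib, F3, Vgll1, Vgll2 and Vgll3. The same holds for every cell type marker named above, such as Cdh1, Epcam, Krt8, Pdgfrb, Pdgfra, Lum, Col3a1, Kdr, Pecam1 and Cd3g. Other listed genes are given only in counts, and 1 of them is not reported here.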

Additional observations from a re-analysis of the deposited data

Results flagged for a closer look

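Of 66 groups of 4 libraries examined (the tested named genes and the paralog shares in each group), 1 had a library standing apart from the other 3, where chance alone gives about 3.3. Yoda1 replicate 1 was low for Tead2 at 0.888 CPM, with the next library at 1.27 CPM, and it had 11 counts of this TEAD gene.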

How the results depend on the processing

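The count of core genes called higher was 0 in all 15 other fits, and the count called lower was 0 in all but the fit without Yoda1 replicate 2, so that it ran from 0 to 1 with a library left out. The median log2 fold change of the core ran from 0.02 to 0.07. With a library left out, the wider pathway had 1 to 3 genes called higher and 3 to 5 called lower, and the targets had 0 to 2 called lower. Calls over all genes tested moved as well with a library left out. They ran from 519 to 807 higher and from 367 to 677 lower, against 739 and 592 in the main fit. Outside those fits, the wider pathway had 1 gene called higher and 5 lower with upper-quartile factors (Strn4 lost and Scrib added) and 3 called higher without a filter on low counts (Mob1b added), while the targets had 2 called higher without a filter on low counts (F3 in addition to Nt5e) and 1 called lower with DESeq2. With a replicate block the targets also had 1 called lower, since Crim1 lost its call (adjusted p = 0.0590), and Taok2 lost its call (0.0713). Over all genes tested, 548 were called higher and 418 lower with this block, 628 and 410 with DESeq2, and 834 and 657 without the filter. The correlation of deviations between same-numbered libraries ran from -0.0277 to 0.0711, which gives no sign of pairing, and 1 of the 4 numbers correlated best with its own. With all libraries kept, directions turned only for log2 fold changes near 0. Stk4 was -0.0012 and Axl -0.0058 with upper-quartile factors, and Stk38l was -0.0155 with library size only and -0.0248 with upper-quartile factors. With a library left out, Stk38l ran from -0.0622 to 0.0484 and Axl from -0.0026 to 0.0541. Tead2, at 0.117 in the main fit from 8 to 26 counts per library, then ran from -0.0623 to 0.335. The cause was not tested. The 5 paralog shares kept their direction under every length, under the pairing and with any library left out. After adjustment 0 of them passed under any length or with any library left out, where a share separating alone could not pass. Under the pairing no share could pass, because the smallest exact p that 4 pairs allow is 0.125. The sizes of the share differences, in percentage points, moved with single libraries. Lats2 went from 1.13 to 0.282 without Yoda1 replicate 3, 0.713 without DMSO replicate 4 and 1.79 without DMSO replicate 3. Mob1b went from 0.824 to 0.271 without Yoda1 replicate 2, 0.396 without DMSO replicate 1 and 1.34 without Yoda1 replicate 3, and Tead1 from -6.47 to -3.66 without DMSO replicate 4. Genes with few counts, such as Tead1, Tead2, Tead3 and Amot, had wide intervals, and Tead4 was too low to test.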
